A study of Homo sapiens with 18 samples.

Results

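The comparison described here is the difference between 2 breast cancer cell lines in their transcriptional response to abemaciclib. For every gene, the log2 change from DMSO to abemaciclib in CAMA-1 was subtracted from the same change in ZR-75-1, so that a positive difference means a response that was higher in ZR-75-1 and a negative one a response that was lower there. No gene was chosen by its values: 11987 genes passed the filter on low counts and were tested, of 25113 with at least 1 count in the series. CAMA-1 and ZR-75-1 are established oestrogen receptor-positive human breast cancer lines, used here as parental, wild-type cultures in the same medium with 10% serum. Each line was treated for 5 days with 500 nM abemaciclib or with an equal volume of DMSO. The 4 groups compared were thus CAMA-1 with DMSO, CAMA-1 with abemaciclib, ZR-75-1 with DMSO and ZR-75-1 with abemaciclib, each with 3 biological replicates, which makes 12 of the 18 libraries. The other 6 libraries, palbociclib at 500 nM in both lines, entered the fit as groups of their own. Each line is a single line, so a difference between them cannot be told apart from any other property in which these lines differ.

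Abemaciclib blocks the kinases CDK4 and CDK6, which act with D-type cyclins to phosphorylate the retinoblastoma protein Rb. Unphosphorylated Rb binds E2F transcription factors, and genes for DNA synthesis, which E2F drives, fall. Genes for mitosis depend on a later complex of MuvB, B-Myb and FOXM1. In luminal breast cancer cells, drugs of this class arrest the cycle in G1 and are given together with anti-oestrogens.

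RNA was read by 3′ mRNA sequencing, which gives about 1 read per transcript end, so levels are not divided by gene length and are compared between samples, never between genes. The libraries held 2308442 to 4146549 counts, and the spread between replicates at the gene level, as the biological coefficient of variation, was 8.26%. Levels are given as normalised CPM (counts scaled to a common library size with TMM factors), and a gene was called at an adjusted p below 0.05 (edgeR quasi-likelihood test, Benjamini-Hochberg over all genes tested). Log2 values are given ± an approximate standard error (SE) over 3 libraries a group, worked back from the fold change and the statistic of its test. Sums over a list or a set of markers are CPM of library totals, without TMM factors. The luminal epithelial markers summed to 5198 to 6420.3 CPM in CAMA-1 and 6089 to 7308 CPM in ZR-75-1. Markers of other cells were low in every one of the 12 libraries: at most 6.47 CPM summed over 5 leukocyte markers, 1.47 CPM over 4 endothelial, 32.7 CPM over 6 fibroblast and 23.4 CPM over 6 basal or myoepithelial markers. CD3E, CD68, CDH5, KDR, COL1A2, DCN, PDGFRB and the basal keratin KRT5 were at 0 counts in all 12. Other members were read. The basal or myoepithelial markers ACTA2 and OXTR rose in CAMA-1. Of the fibroblast markers, COL1A1 was at 10.6 to 33.9 CPM, and COL3A1 went from 2, 5 and 6 to 24, 20 and 12 counts in CAMA-1. Mitochondrially encoded genes took 15.7% ± 0.866 of counts (SD, n = 3) in CAMA-1 with DMSO and 24.8% ± 1.37 with abemaciclib, and 20.2% ± 2.68 and 19.5% ± 1.01 in ZR-75-1. The change in share had a two-sided exact permutation p of 0.1 in CAMA-1, the smallest that 3 against 3 libraries can give, and 0.8 in ZR-75-1. With those genes removed before scaling, 2197 genes differed between the lines, beside 2185 with them.

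The response differed between the lines for 2185 of 11987 genes, which is 18.2% of those tested. Of these, 982 were higher in ZR-75-1 (8.19%) and 1203 were lower in ZR-75-1 (10.0%), and 820 of the 2185 differed by at least 2-fold. Abemaciclib raised 2375 genes (19.8%) and lowered 2031 (16.9%) in CAMA-1, and raised 2030 (16.9%) and lowered 2044 (17.1%) in ZR-75-1. Of 2222 genes called in both lines, 1971 moved the same way and 251 moved in opposite directions. The split between higher and lower had no firm direction and depended on the scaling and on the genes and libraries used. Of the called genes, 53.1% were higher with mitochondrially encoded genes removed and 52.6% with the 12 DMSO and abemaciclib libraries alone. When single replicates were left out, the share higher ran from 44.1% to 53.9%. With library totals in place of TMM factors, 1620 genes were higher and 837 lower in ZR-75-1, the share higher went from 44.9% to 65.9% and the median difference over all genes went from -0.03 to 0.12.

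The 2185 genes fell into 5 kinds. Genes that moved in opposite directions numbered 251, of which 171 rose in CAMA-1 and fell in ZR-75-1 and 80 fell in CAMA-1 and rose in ZR-75-1. With library totals this split turned, to 114 and 163. In 209 of the 251, the 3 drug libraries did not overlap the 3 DMSO libraries in either line. Genes called in both lines tend to separate in this way, so this count is a description and not separate support. A further 981 genes were called in 1 line while the 95% interval in the other stayed within 1.5-fold of no change. These were 314 up and 253 down in CAMA-1, and 258 up and 156 down in ZR-75-1. Another 500 were called in 1 line with a wider interval in the other, 393 moved the same way in both lines by different amounts, and 60 were called in neither line alone.

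**Figure D1:**
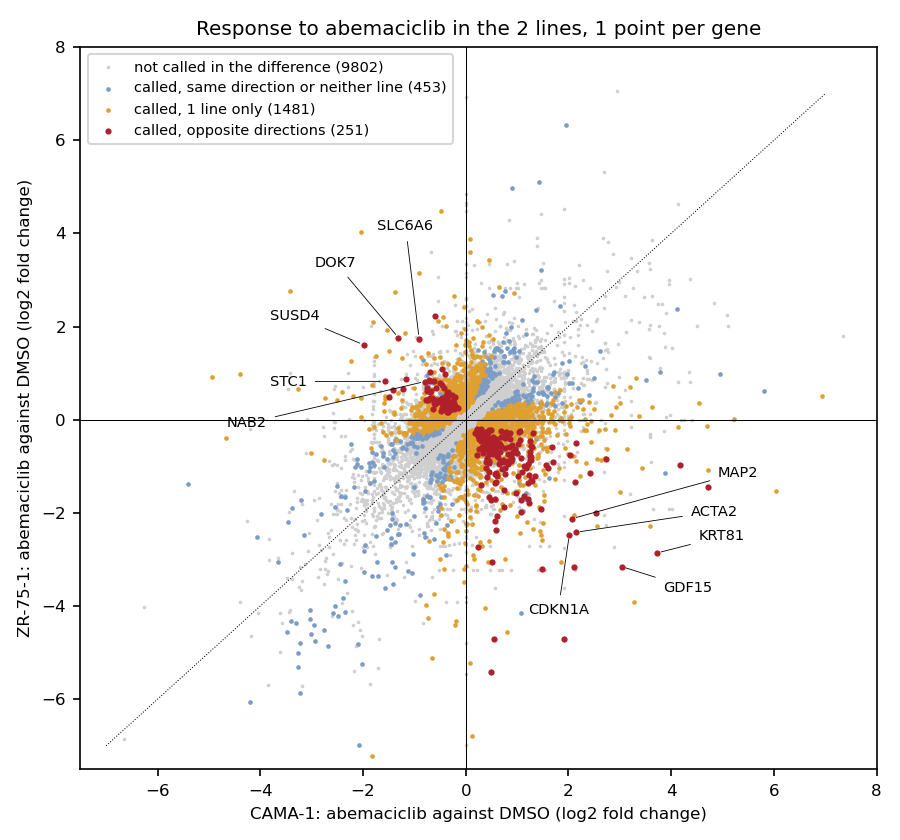
Each point is a gene, with its log2 fold change from DMSO to abemaciclib in CAMA-1 on the horizontal axis and in ZR-75-1 on the vertical axis; colours give the kind of difference and the dotted line marks equal responses. The 251 genes in red lie in the upper left and lower right, and the 10 with the largest smaller change of the 2 lines that met the naming rule carry their symbols.

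Among the genes of the CDK4/6 to E2F axis, the inhibitor of cyclin-dependent kinases CDKN1A moved in opposite directions, and CCNE2, E2F2 and CDKN2A fell further in ZR-75-1 than in CAMA-1. CDK2 and CDK4 fell in CAMA-1 and were not called in ZR-75-1. Of 31 members tested of 33, 11 were called in the difference, 4 higher and 7 lower in ZR-75-1, or 35.5% against 18.2% of all genes. The remaining 20 include FOXM1, MYBL2, E2F1 and TFDP1.

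CDKN1A, which encodes the inhibitor p21, was at 8.62, 8.04 and 12.6 CPM in the 3 CAMA-1 DMSO libraries and 43.4, 33.9 and 43.7 CPM with abemaciclib. In ZR-75-1 it was at 147, 156 and 133 CPM with DMSO and 22.9, 28.1 and 27.6 CPM with abemaciclib. Drug and DMSO libraries did not overlap in either line, and the ZR-75-1 DMSO libraries were the highest of the 12. The log2 fold change was 2.02 ± 0.17 in CAMA-1 and -2.47 ± 0.13 in ZR-75-1, a difference of -4.49 ± 0.22 with an adjusted p of 7.89e-26 (edgeR).

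CCND1, the gene of cyclin D1, was at 571, 551 and 594 CPM in CAMA-1 with DMSO and 1425, 1483 and 1415 CPM with abemaciclib. ZR-75-1 had 856, 846 and 828 CPM and 1606, 1627 and 1610 CPM. It rose in both lines, by 1.33 ± 0.06 in CAMA-1 and 0.94 ± 0.06 in ZR-75-1 on the log2 scale, and the rise was larger in CAMA-1 (difference -0.40, adjusted p 2.85e-04, edgeR). CDK2, the partner of cyclins E and A, went from 155, 149 and 154 CPM to 71.2, 63.1 and 97.5 CPM in CAMA-1 without overlap, and in ZR-75-1 from 88.4, 111 and 101 CPM to 76.3, 111 and 75.4 CPM, where the groups overlapped. Its difference was 0.78 ± 0.17 (adjusted p 4.50e-04, edgeR). CDK4 itself, the drug target, had a log2 fold change of -0.43 ± 0.10 in CAMA-1 and 0.00 ± 0.08 in ZR-75-1, and the call of this difference was lost without CAMA-1 abemaciclib replicate 1 (adjusted p 0.0574, edgeR). CDK6, the other target, was nearly unread, with 3, 3 and 2 counts in the CAMA-1 DMSO libraries and 16, 11 and 6 with abemaciclib, a ratio of 4.64 (exact 95% interval 2.10 to 11.6) that covers counting error only, beside 14, 20 and 7 and 11, 0 and 9 counts in ZR-75-1.

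RB1, which encodes Rb, was at 48.5, 43.2 and 42.7 CPM and 49.8, 42.0 and 41.5 CPM in CAMA-1 and was not called there. In ZR-75-1 it fell, with a log2 fold change of -0.70 ± 0.14. Its 3 ZR-75-1 libraries went from 58.9, 49.4 and 47.0 CPM to 33.2, 27.8 and 34.7 CPM with no overlap (difference -0.70, adjusted p 0.00792, edgeR). CDKN2A, an inhibitor of CDK4 and CDK6, went from 21.6, 24.2 and 32.1 CPM to 5.64, 3.13 and 4.34 CPM in ZR-75-1 and from 77.9, 90.8 and 65.0 CPM to 41.0, 54.9 and 56.5 CPM in CAMA-1. It fell in both lines, and further in ZR-75-1, with a difference of -1.93 ± 0.29 (adjusted p 5.51e-07, edgeR). The transcription factor E2F2 fell in both lines, with log2 fold changes of -2.40 in CAMA-1 and -3.82 in ZR-75-1, and this difference lost its call without CAMA-1 DMSO replicate 3, CAMA-1 abemaciclib replicate 2 or 3, ZR-75-1 DMSO replicate 1 or ZR-75-1 abemaciclib replicate 2, with adjusted p between 0.0587 and 0.166 (edgeR). CCNE2, the gene of cyclin E2, had 47, 38 and 51 counts in ZR-75-1 with DMSO and 3, 0 and 1 with abemaciclib, a ratio of 31.1 (exact 95% interval 11.9 to 116), and 25.2, 23.1 and 21.1 and 2.91, 3.86 and 4.06 CPM in CAMA-1. Its difference lost the call without CAMA-1 abemaciclib replicate 3 or ZR-75-1 abemaciclib replicate 2 or 3, with adjusted p between 0.0592 and 0.132 (edgeR). The 4 higher members, CDK2, CDK4, E2F3 and LIN52, came to 2 without any of CAMA-1 abemaciclib replicate 1, ZR-75-1 DMSO replicate 1 or ZR-75-1 abemaciclib replicates 1 and 2. E2F3 had a difference of 0.49 ± 0.16 and LIN52, a MuvB subunit, of 0.87 ± 0.32. E2F3 lost its call without ZR-75-1 DMSO replicate 1 (adjusted p 0.133, edgeR) or ZR-75-1 abemaciclib replicate 1 or 2 (0.0654 and 0.0622), and LIN52 without any of 7 libraries (0.07 to 0.0973), namely CAMA-1 DMSO replicate 2, CAMA-1 abemaciclib replicates 1 and 2, and replicates 1 and 2 of both ZR-75-1 groups.

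The differences of FOXM1, MYBL2 and E2F1 were not called. FOXM1, which drives mitotic genes, fell in both lines, with log2 fold changes of -2.62 in CAMA-1 and -2.36 in ZR-75-1 and a difference of 0.25 (95% interval -0.19 to 0.70). MYBL2, the B-Myb gene, had a difference of 0.22 (95% interval -0.06 to 0.51). E2F1 had a difference of 0.56 ± 0.21 with an adjusted p of 0.0521 (edgeR), and it was called in 11 of the 21 alternatives, DESeq2 among them. For the low genes E2F7, E2F8 and CDKN1C, at least 1 of the drug groups held 0 or 1 counts in all, and none of the 3 differences was called. CDKN2B rose in CAMA-1 from 5.11, 6.03 and 8.04 CPM to 20.4, 21.03 and 15.6 CPM and was at 0 to 3 counts in the 6 ZR-75-1 libraries. The remaining genes, CCND3, CCNE1, CDKN1B, CDKN2C, CDKN2D, RBL1, RBL2, E2F4, E2F5, TFDP1, TFDP2, LIN9 and LIN54, had differences from -0.83 to 0.81 that were not called.

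**Figure D2:**
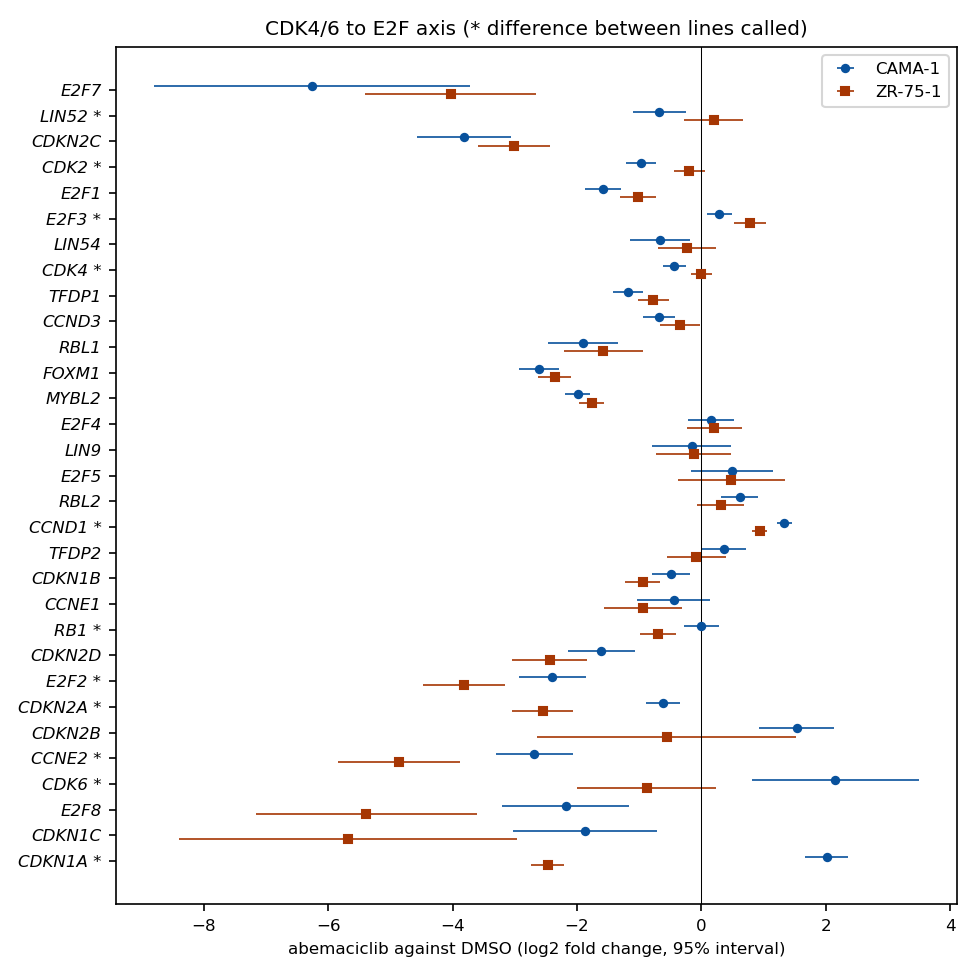
Log2 fold change from DMSO to abemaciclib with its 95% interval for the 31 tested genes of the CDK4/6 to E2F axis, CAMA-1 as circles and ZR-75-1 as squares, ordered by the difference between the lines; a star marks a called difference. CDKN1A at the bottom has CAMA-1 at 2.02 and ZR-75-1 at -2.47, while FOXM1 and MYBL2 have overlapping intervals.

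More genes of DNA replication fell further in CAMA-1 than in ZR-75-1, and more genes of mitosis fell further in ZR-75-1. Of 53 replication genes, 52 fell in CAMA-1 and 45 in ZR-75-1, with median log2 fold changes of -1.69 and -1.16. In the difference, 16 were higher and 2 lower in ZR-75-1, and the list median was 0.47 against -0.03 over all genes. Of 72 mitotic genes tested, all 72 fell in CAMA-1 and 71 in ZR-75-1, with medians of -1.96 and -2.49. Here 6 were higher and 21 lower in ZR-75-1, or 37.5% called. The list median was -0.37, or -0.34 without the 3 genes that were at or under 3 counts in a whole group. Without CAMA-1 abemaciclib replicate 1, the 6 became 3. In bulk RNA, fewer cells in a phase of the cycle and less RNA of these genes per cell cannot be told apart.

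The sequences below show what lies before the start of genes from each side of this contrast. For each of 4 groups (replication, mitosis, ATF4 targets and interferon-stimulated genes), the 2 members with the smallest p in the group's main direction whose 250 bases before a RefSeq start hold the group's motif were taken, and 120 bases are printed from GRCh38.p14, 5′ to 3′ on the gene's strand, with complete matches in capitals. The E2F motif was searched as TTTGGCGC, TTTCGCGC, TTTCCCGC or TTTGCCGC, and the cell cycle homology region (CHR), which MuvB complexes bind, as TTTGAA or TTCGAA, both on either strand.

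DTL, E2F motif, chr1:212035628-212035747, plus strand: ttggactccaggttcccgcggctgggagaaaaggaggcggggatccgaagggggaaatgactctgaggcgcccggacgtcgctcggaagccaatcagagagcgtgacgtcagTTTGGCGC
MCM3, E2F motif, chr6:52284853-52284972, minus strand: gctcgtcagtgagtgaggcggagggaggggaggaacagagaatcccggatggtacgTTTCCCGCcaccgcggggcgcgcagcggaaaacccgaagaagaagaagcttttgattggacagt
TOP2A, CHR, chr17:40417985-40418104, minus strand: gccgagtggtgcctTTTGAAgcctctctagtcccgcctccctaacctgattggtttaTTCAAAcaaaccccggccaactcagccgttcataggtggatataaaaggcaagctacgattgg
MKI67, CHR, chr10:128126424-128126543, minus strand: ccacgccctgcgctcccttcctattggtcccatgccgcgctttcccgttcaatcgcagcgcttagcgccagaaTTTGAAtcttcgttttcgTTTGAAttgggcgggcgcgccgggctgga

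The E2F letters were found before 19 of the 45 replication genes with a promoter in the table (42.2%), 3 of 61 mitotic genes (4.92%) and 5.81% of the 9295 tested genes with a promoter, and in 2.79% of all 35116 windows. The CHR letters were found before 4 of 45 replication genes (8.89%), 33 of 61 mitotic genes (54.1%) and 13.1% of tested genes, and in 14.3% of all windows. Within the replication list, 4 of 11 members that were called higher in ZR-75-1 held the E2F letters. Within the mitotic list, the CHR letters stood before 10 of 17 members called lower and 3 of 6 called higher. Other lists were searched too. The E2F letters were found before 1 of 22 recombination genes (4.55%). The AP-1 motif, searched as TGANTCA on either strand, stood before 0 of 25 AP-1 and immediate early genes and 5.58% of tested genes. A match of letters is a description and not a bound site.

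MCM2, a subunit of the replicative helicase, was at 160.3, 161 and 139 CPM in CAMA-1 with DMSO and 35.2, 30.9 and 30.6 CPM with abemaciclib. ZR-75-1 held 68.1, 86.5 and 89.8 CPM and 55.4, 54.9 and 60.8 CPM. The groups did not overlap in either line, and the log2 fold changes were -2.24 ± 0.12 in CAMA-1 and -0.52 ± 0.12 in ZR-75-1 (difference 1.72, adjusted p 9.14e-13, edgeR). DTL, which marks the licensing factor CDT1 for destruction and whose promoter is printed above, went from 57.8, 57.3 and 68.0 to 6.35, 5.15 and 8.12 CPM in CAMA-1 and from 109, 114 and 107 to 35.2, 33.0 and 32.4 CPM in ZR-75-1, a difference of 1.48 ± 0.22 (adjusted p 4.26e-07, edgeR). MCM3, another helicase subunit, differed by 0.95 ± 0.16. MCM5, CDT1, CDC6, FEN1, TK1, RFC5, GINS1, GINS4, CHAF1A, HELLS, ATAD2, RPA2 and RPA3 make up the other 13 that were higher in ZR-75-1.

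The 2 replication genes that went the other way were RRM2 and TYMS. RRM2, the small subunit of ribonucleotide reductase, was at 181, 174 and 189 CPM and 9.53, 10.3 and 9.68 CPM in CAMA-1. In ZR-75-1 it went from 76.6, 87.4 and 80.8 CPM to 0.664, 1.39 and 1.58 CPM. It fell in both lines, with a difference of -1.85 ± 0.41 (adjusted p 5.29e-04, edgeR). TYMS, thymidylate synthase, had log2 fold changes of -2.95 in CAMA-1 and -4.40 in ZR-75-1 (difference -1.45 ± 0.33, adjusted p 6.54e-04, edgeR).

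MKI67, which encodes the proliferation antigen Ki-67, was at 391, 392 and 459 CPM in CAMA-1 with DMSO and 52.9, 38.6 and 38.4 CPM with abemaciclib. In ZR-75-1 it was at 489.6, 510.5 and 493 CPM and 6.97, 5.56 and 13.4 CPM. The DMSO libraries were somewhat higher in ZR-75-1, and the ZR-75-1 drug libraries were the lowest of the 12. The log2 fold changes were -3.24 ± 0.10 and -5.87 ± 0.14, a difference of -2.64 ± 0.20 (adjusted p 8.53e-17, edgeR). TOP2A, the topoisomerase that untangles sister chromatids, went from 1684, 1554 and 1705 CPM to 301, 330 and 346 CPM in CAMA-1 and from 1466, 1510 and 1539 CPM to 85.6, 82.3 and 90.4 CPM in ZR-75-1, a difference of -1.79 ± 0.10 (adjusted p 7.39e-23, edgeR). CENPF, a kinetochore protein, differed by -1.53 ± 0.11. On the other side, the condensin subunit SMC4 went from 384, 422 and 437 to 109.6, 117 and 123.1 CPM in CAMA-1 and from 330.1, 344 and 403 to 218, 227 and 221 CPM in ZR-75-1. SMC4 fell less in ZR-75-1 (difference 1.14 ± 0.12, adjusted p 6.23e-12, edgeR), as did the CDK subunit CKS1B (0.43 ± 0.11) and the kinetochore gene NUF2 (0.78 ± 0.22).

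Of 24 tested genes of homologous recombination and the Fanconi pathway, 21 fell in CAMA-1 and 13 in ZR-75-1. In the difference, 5 were higher and 0 lower in ZR-75-1 (list median 0.51), or 20.8% called, near the 18.2% of all genes. That 5 was 3 without CAMA-1 abemaciclib replicate 1 or 3 or ZR-75-1 abemaciclib replicate 3, and 9 with library totals. BRCA1, which guides repair by recombination, went from 87.5, 74.3 and 93.8 to 21.97, 18.9 and 16.6 CPM in CAMA-1 and from 54.0, 54.0 and 47.3 to 18.9, 27.1 and 31.2 CPM in ZR-75-1, a difference of 1.13 ± 0.22 (adjusted p 7.19e-05, edgeR). Of 24 histone genes, 0 were higher and 7 lower in ZR-75-1, or 29.2% called, with a list median of -0.53. The 0 was 1 without replicate 1 of any of the 4 groups, and 2 with library totals. The linker histone H1-2 was at 209, 229 and 161 CPM and 156, 143 and 165 CPM in CAMA-1, and at 249.5, 237 and 257 CPM and 44.8, 50.4 and 60.8 CPM in ZR-75-1. Its groups overlapped in CAMA-1 and were far apart in ZR-75-1 (difference -1.90 ± 0.14, adjusted p 8.53e-17, edgeR). The variant histone H3-3B, which is made outside S phase too, differed by -0.58 ± 0.09. Histone genes of near-identical sequence can share reads, and many histone mRNAs lack the poly(A) tail that this assay primes on.

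Ordered by the smaller response of the 2 lines, among genes that averaged 10 counts or more and had no overlap between treated and DMSO libraries, the first 5 that rose in CAMA-1 and fell in ZR-75-1 were GDF15, KRT81, ACTA2, MAP2 and CDKN1A. The first 5 that fell in CAMA-1 and rose in ZR-75-1 were SUSD4, DOK7, SLC6A6, STC1 and NAB2. Ordered by the difference itself, others such as DHRS2 and MGP, described further on, come before some of these. GDF15, a secreted stress cytokine, was at 4.47, 6.36 and 8.96 CPM in CAMA-1 with DMSO and 61.4, 58.8 and 49.0 CPM with abemaciclib. ZR-75-1 held 134, 127 and 104 CPM with DMSO and 12.6, 11.5 and 17.4 CPM with abemaciclib. With DMSO, every ZR-75-1 library was above every CAMA-1 library, and with abemaciclib every one was below. The log2 fold changes were 3.04 ± 0.18 and -3.15 ± 0.15, which gave the smallest p of these 10 genes (difference -6.19 ± 0.23, adjusted p 1.10e-31, edgeR).

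KRT81, a hair keratin, went from 2.24, 3.68 and 2.298 to 44.7, 32.6 and 29.4 CPM in CAMA-1 and from 31.1, 33.8 and 26.3 to 3.65, 4.52 and 4.34 CPM in ZR-75-1. The 2 lines again traded places, with a difference of -6.59 ± 0.36 (adjusted p 5.18e-23, edgeR), but hair keratins of near-identical sequence could split its reads. ACTA2, smooth muscle actin, and MAP2, a microtubule-binding protein, were low. ACTA2 had 9, 5 and 5 counts and 28, 24 and 24 counts in CAMA-1 and 34, 24 and 14 counts and 2, 5 and 5 counts in ZR-75-1. MAP2 had 6, 0 and 16 and 31, 24 and 25 counts in CAMA-1 and 18, 22 and 9 and 3, 5 and 2 in ZR-75-1. Their differences were -4.57 ± 0.66 and -4.20 ± 0.74, with drug and DMSO libraries apart in each line.

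STC1, which encodes the secreted hormone stanniocalcin 1, went from 53.7, 51.9 and 57.0 to 19.1, 22.3 and 13.7 CPM in CAMA-1 and from 28.8, 37.7 and 28.0 to 56.4, 57.0 and 54.5 CPM in ZR-75-1 (difference 2.40 ± 0.22, adjusted p 1.39e-13, edgeR). SUSD4, a complement regulator, went from 2.88, 5.02 and 5.06 to 0.794, 0.429 and 1.87 CPM in CAMA-1 and from 7.53, 9.82 and 12.8 to 31.9, 33.4 and 26.4 CPM in ZR-75-1. ZR-75-1 was above CAMA-1 in both conditions, by more with the drug. DOK7, an adaptor of the muscle kinase MuSK, overlapped between the lines with DMSO, at 6.39, 7.03 and 10.1 CPM in CAMA-1 and 7.53, 5.21 and 10.4 CPM in ZR-75-1, and stood at 3.44, 2.15 and 3.75 CPM in treated CAMA-1 and 25.9, 26.4 and 25.6 CPM in treated ZR-75-1. SLC6A6, the taurine transporter, had a difference of 2.65 ± 0.50 and NAB2, a repressor of EGR proteins, one of 1.62 ± 0.34 (adjusted p 4.56e-05 and 2.33e-04, edgeR). For 63.2% of the 171 genes that rose in CAMA-1 and fell in ZR-75-1, the DMSO level was higher in ZR-75-1, and for 42.5% of the 80 of the reverse kind, beside 50.5% of all genes tested. Since a DMSO level enters its own fold change, these shares are a description.

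**Figure D3:**
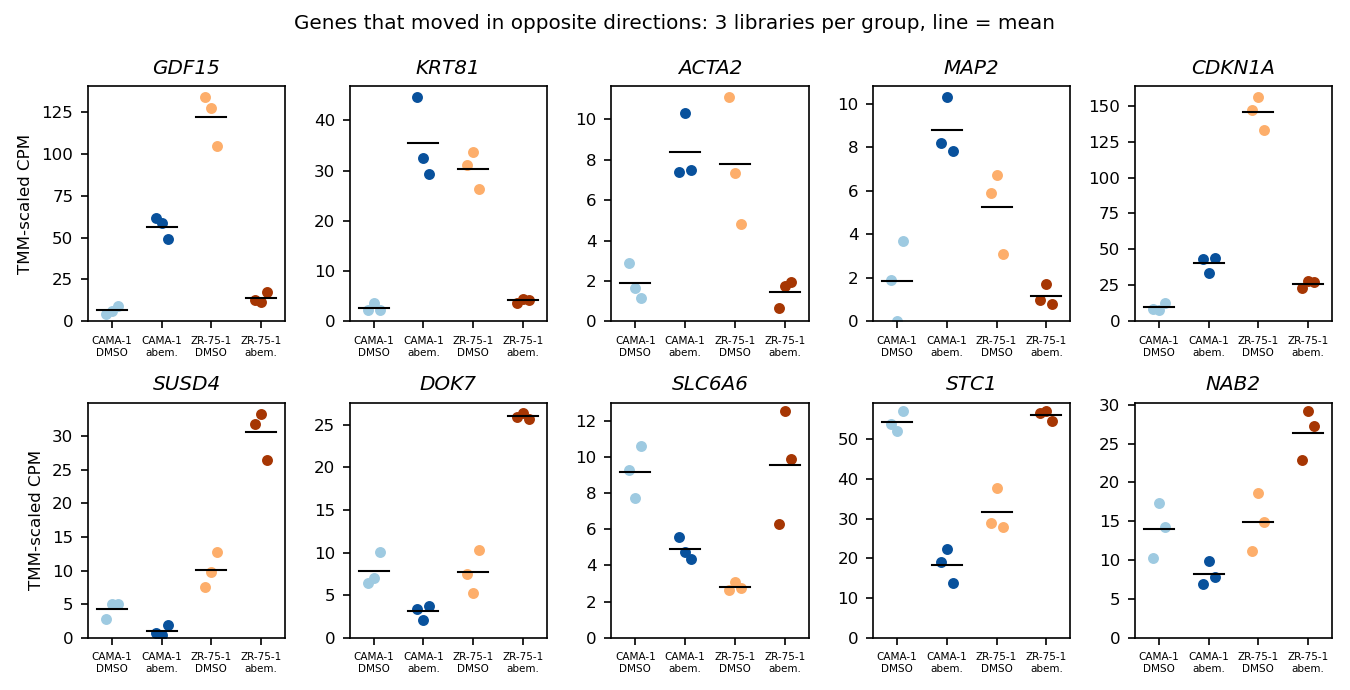
TMM-scaled CPM in each library of the 4 groups for 10 genes that moved in opposite directions, with 3 points and a line at the mean per group and each vertical axis starting at 0. GDF15 in CAMA-1 goes from 4.47, 6.36 and 8.96 CPM to 61.4, 58.8 and 49.0 CPM while ZR-75-1 goes from 134, 127 and 104 CPM to 12.6, 11.5 and 17.4 CPM; STC1 and the other 4 genes of the lower row show the reverse.

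Genes that moved in ZR-75-1 alone included CHAC1, NUPR1 and NDRG1, which fell, and LRP2, TGFBR3 and ZNF587B, which rose. NUPR1, a stress-induced transcription regulator, was at 224, 207 and 258 CPM and 252, 261 and 264 CPM in CAMA-1, where its log2 fold change was 0.17 (95% interval -0.01 to 0.35). In ZR-75-1 it went from 54.7, 38.0 and 37.7 CPM to 6.64, 5.56 and 3.95 CPM (difference -3.15 ± 0.22, adjusted p 5.00e-18, edgeR). CHAC1, which degrades glutathione, was at 16.3, 20.8 and 14.7 CPM and 19.1, 18.0 and 13.1 CPM in CAMA-1 and went from 18.0, 11.3 and 20.7 CPM to 1.33, 3.82 and 0 CPM in ZR-75-1. Both are targets of ATF4 by textbook knowledge. TGFBR3, the betaglycan co-receptor of TGF-β, went from 1.64, 2.15 and 5.18 to 15.3, 15.6 and 16.6 CPM in ZR-75-1 and stood at 12.5, 11.1 and 12.4 and 10.6, 11.6 and 13.1 CPM in CAMA-1 (difference 2.44 ± 0.41, adjusted p 5.40e-06, edgeR). For LRP2, an endocytic receptor, the ZR-75-1 libraries held 1, 0 and 0 and 7, 4 and 7 counts, a ratio of 19.7 (exact 95% interval 3.11 to 819), and for the hypoxia-responsive NDRG1 11, 16 and 8 and 2, 2 and 0 counts, a ratio of 8.01 (exact 95% interval 2.86 to 31.0) for DMSO over abemaciclib. ZNF587B, a zinc-finger gene with close relatives, had a difference of 1.70 ± 0.46.

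In CAMA-1 alone, TUBA1A, PCDH7 and SETBP1 rose, and HPRT1, PHLDA2 and SSBP3 fell. TUBA1A, an α-tubulin, went from 5.11, 3.01 and 2.76 CPM to 72.5, 58.8 and 54.4 CPM in CAMA-1 and was at 218, 216 and 186 and 175, 193 and 193 CPM in ZR-75-1. Treated CAMA-1 libraries still lay below every ZR-75-1 library (difference -4.27 ± 0.22, adjusted p 1.36e-24, edgeR). HPRT1, of purine salvage, went from 34.2, 30.5 and 34.2 to 14.3, 9.87 and 12.5 CPM in CAMA-1 and was at 26.2, 34.05 and 30.8 and 30.2, 34.4 and 35.1 CPM in ZR-75-1, where its log2 fold change was 0.13 (95% interval -0.22 to 0.47). PHLDA2 and the transcription cofactor SSBP3 differed by 1.14 ± 0.15 and 1.12 ± 0.20. PCDH7 and SETBP1 were near the limit of the reads in CAMA-1. PCDH7, a protocadherin, had 0 counts in all 3 DMSO libraries and 2, 2 and 5 with abemaciclib, at least 3.37-fold higher than 3 counts over the DMSO group, and its call was lost without CAMA-1 abemaciclib replicate 3 (adjusted p 0.0606, edgeR). SETBP1 had 1, 0 and 1 and 10, 3 and 3 counts, a ratio of 9.00 (exact 95% interval 2.11 to 80.6), and lost its call without CAMA-1 DMSO replicate 2 or 3 or CAMA-1 abemaciclib replicate 1, with adjusted p between 0.0561 and 0.189 (edgeR).

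Where both lines moved the same way, NEURL1B and FBXO5 fell further in ZR-75-1, and MCM2, above, and BTG3 fell further in CAMA-1. NEURL1B, a ubiquitin ligase of Notch ligands, went from 183, 212 and 211 to 59.6, 39.5 and 48.1 CPM in CAMA-1 and from 159, 140.2 and 149 to 3.32, 5.21 and 3.16 CPM in ZR-75-1 (difference -3.22 ± 0.24, adjusted p 2.41e-17, edgeR). FBXO5, the EMI1 inhibitor of the anaphase-promoting complex, differed by -2.87 ± 0.37. BTG3 and the 4 genes named by the rule among those that rose were read near 0 in 1 group. BTG3 had 2, 5 and 10 counts in CAMA-1 with DMSO and 0 with abemaciclib, at least 5.04-fold lower than DMSO against 3 counts over the group. WNT4, a ligand, had 0 counts in ZR-75-1 with DMSO and 12, 7 and 7 with abemaciclib, at least 9.47-fold higher, and RNF128 0 counts and 6, 1 and 3, at least 3.64-fold higher. In CAMA-1, NALF1 went from 0 counts to 12, 6 and 2, at least 7.50-fold higher, and UGT2B15, which conjugates steroids, from 1, 0 and 0 to 24, 4 and 11 counts, a ratio of 43.9 (exact 95% interval 7.42 to 1780). With counts this low, the order of the 2 lines' fold changes is uncertain. BTG3 lost its call without CAMA-1 DMSO replicate 3, any 1 CAMA-1 abemaciclib library or ZR-75-1 abemaciclib replicate 2 (adjusted p 0.0539 to 0.101, edgeR), and RNF128 without any of 8 libraries (0.0545 to 0.136), namely CAMA-1 DMSO replicate 2, CAMA-1 abemaciclib replicates 1 and 2, all 3 ZR-75-1 DMSO libraries and ZR-75-1 abemaciclib replicates 1 and 3.

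Grouping genes by function gave lists whose median moved apart in either direction. The lists were written by hand with earlier results of these data known, so each is described by its counts beside the 8.19% higher and 10.0% lower among all genes, and by its median beside -0.03.

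**Figure D4:**
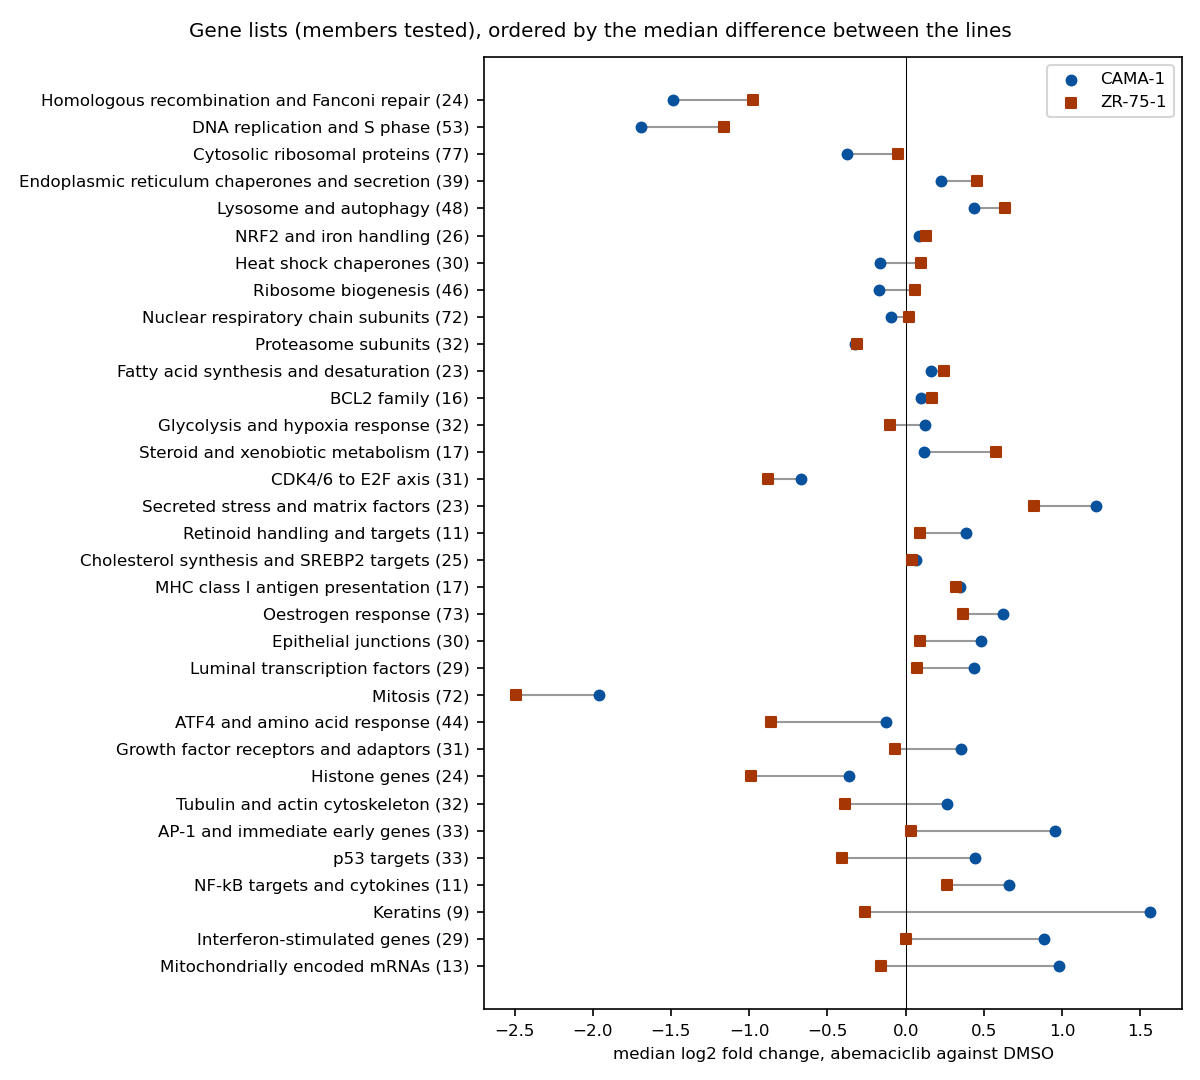
Median log2 fold change from DMSO to abemaciclib over the tested members of each of 33 lists, CAMA-1 as circles and ZR-75-1 as squares, with the number tested in parentheses and lists ordered by the median difference. Replication genes and recombination genes at the top fell further in CAMA-1, and mitochondrially encoded mRNAs at the bottom sit at 0.98 in CAMA-1 and -0.16 in ZR-75-1.

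Genes listed as p53 targets rose more often than they fell in CAMA-1, and fell more often than they rose in ZR-75-1. Of 33 tested, 13 rose and 4 fell in CAMA-1, and 4 rose and 14 fell in ZR-75-1. The 4 that rose in ZR-75-1 were 2 without ZR-75-1 DMSO replicate 1 or ZR-75-1 abemaciclib replicate 1. In the difference, 0 were higher and 16 lower in ZR-75-1, with a list median of -0.74. The 16 were 10 without CAMA-1 DMSO replicate 2 or CAMA-1 abemaciclib replicate 3, and 1 gene was higher without CAMA-1 DMSO replicate 1 or CAMA-1 abemaciclib replicate 2 or 3, and 2 with library totals. Besides GDF15 and CDKN1A, the apoptosis gene BBC3 went from 50.1, 62.0 and 74.9 to 89.7, 101 and 89.0 CPM in CAMA-1 and from 51.7, 39.9 and 44.6 to 20.2, 17.7 and 15.0 CPM in ZR-75-1 (difference -1.91 ± 0.20, adjusted p 3.31e-11, edgeR). SESN2, which restrains mTORC1, went from 36.1, 34.5 and 40.7 to 58.0, 57.1 and 53.7 CPM in CAMA-1 and from 116, 86.5 and 108 to 46.1, 43.1 and 50.9 CPM in ZR-75-1 (difference -1.74 ± 0.18, adjusted p 1.01e-11, edgeR). Drug and DMSO libraries were apart in each line for both genes. MDM2, the classic p53 target, named here with its value already seen, was not among the 16, with a difference of 0.23 ± 0.12 (adjusted p 0.195, edgeR).

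Of 44 tested genes of ATF4, the transcription factor of amino acid stress, 34 fell and 2 rose in ZR-75-1, against 15 and 7 in CAMA-1. The 7 became 4 without CAMA-1 DMSO replicate 1 or 3 or CAMA-1 abemaciclib replicate 1, and 3 with library totals, and the 2 became 1 without ZR-75-1 DMSO replicate 1 or 3. The difference was lower in ZR-75-1 for 23 and higher for 3, or 59.1% called against 18.2% (19 and 5 with library totals), with a list median of -0.50. GDF15 and SESN2 stand in this list as well as in that of p53. The amino acid transporter SLC7A5 went from 88.5, 107 and 106 to 75.2, 78.1 and 79.3 CPM in CAMA-1 and from 60.2, 40.2 and 47.0 to 5.97, 6.60 and 7.10 CPM in ZR-75-1 (difference -2.52 ± 0.23, adjusted p 6.72e-14, edgeR). SLC7A11, the cystine carrier, was at 4.79, 3.35 and 5.06 CPM and 3.71, 4.29 and 3.75 CPM in CAMA-1, where the groups overlapped, and went from 48.1, 36.5 and 30.8 CPM to 1.33, 3.13 and 0.789 CPM in ZR-75-1 (difference -4.21 ± 0.55, adjusted p 1.16e-08, edgeR). The 3 that were higher in ZR-75-1 were the glutamine carrier SLC1A5 (0.82 ± 0.11), the proline enzyme ALDH18A1 (0.66 ± 0.18) and the tRNA synthetase WARS1 (0.63 ± 0.21). WARS1 lost its call without CAMA-1 DMSO replicate 2, CAMA-1 abemaciclib replicate 1 or ZR-75-1 abemaciclib replicate 2 or 3, with adjusted p between 0.0543 and 0.0984 (edgeR).

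The C/EBP-ATF response element was searched as TGATGNAA on either strand. It stood before 8 of 35 list members with a promoter (22.9%), 6 of the 18 called lower in ZR-75-1 (33.3%) and 2.00% of tested genes, and in 3.14% of all windows. JDP2, a repressor of AP-1, and CHAC1 are shown as the members taken by the rule given with the first sequences.

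JDP2, response element, chr14:75427902-75428021, plus strand: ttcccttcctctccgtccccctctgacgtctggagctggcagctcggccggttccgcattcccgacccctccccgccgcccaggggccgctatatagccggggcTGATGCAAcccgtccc
CHAC1, response element, chr15:40953221-40953340, plus strand: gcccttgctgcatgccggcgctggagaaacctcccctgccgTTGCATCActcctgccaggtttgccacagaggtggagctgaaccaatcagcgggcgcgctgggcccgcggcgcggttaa

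JDP2 was at 45.0, 52.9 and 42.0 CPM and 69.3, 57.1 and 69.97 CPM in CAMA-1 and went from 19.6, 14.4 and 23.1 CPM to 0.995, 3.13 and 2.76 CPM in ZR-75-1. It rose in CAMA-1 by 0.50 ± 0.15 and fell in ZR-75-1, with a log2 fold change of -3.05 ± 0.31. CHAC1 differed by -3.17 ± 0.48 (adjusted p 6.80e-07, edgeR).

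**Figure D5:**
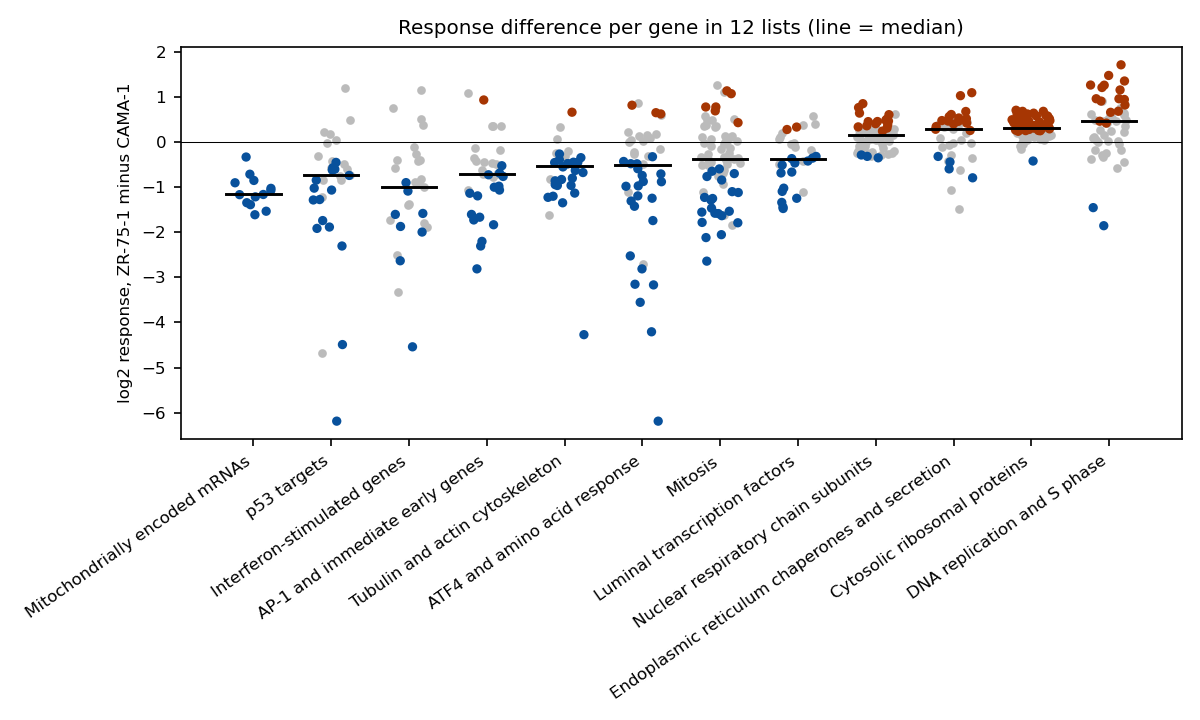
Difference in log2 response, ZR-75-1 minus CAMA-1, for every tested gene of 12 lists; coloured points are called differences, grey points are not, and black lines are list medians. All 13 mitochondrially encoded mRNAs lie below 0, 51 of 77 ribosomal protein genes are called above 0, and replication and mitosis have medians of 0.47 and -0.37.

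The 13 mRNAs of the mitochondrial genome, which encode subunits of the respiratory chain and of ATP synthase, were all called lower in ZR-75-1. In CAMA-1, 12 rose and 1 fell, with a median of 0.98. In ZR-75-1, 2 rose and 5 fell, with a median of -0.16. These were 4 up and 3 down without ZR-75-1 DMSO replicate 3, 3 up and 3 down without ZR-75-1 abemaciclib replicate 2 and 1 up and 7 down without ZR-75-1 DMSO replicate 2 or ZR-75-1 abemaciclib replicate 3. MT-ND5 was at 2350, 2271 and 2156 CPM and 5468, 4811 and 5606 CPM in CAMA-1 and at 3626, 3021 and 3650 and 2901, 2916 and 3423 CPM in ZR-75-1, where the groups overlapped (difference -1.39 ± 0.10, adjusted p 3.67e-17, edgeR). MT-ATP8 went from 3166, 2989 and 3108 to 6096, 5196 and 6298 CPM in CAMA-1 and from 6146, 5583 and 7425 to 4154, 3395 and 4379 CPM in ZR-75-1 (difference -1.61 ± 0.12, adjusted p 1.80e-16, edgeR), but its reading frame overlaps that of MT-ATP6 and their reads may be shared. The gene that fell in CAMA-1 was MT-ND6, the member encoded on the other strand, at -0.27 ± 0.10 there and -1.80 ± 0.11 in ZR-75-1. The fall in CAMA-1 was not called without CAMA-1 DMSO replicate 1 or CAMA-1 abemaciclib replicate 2. The strand setting of the counting is not given in the sources used here, so its reads may include transcripts antisense to it. These are the genes behind the mitochondrial share of counts given above.

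Of 77 cytosolic ribosomal protein genes tested, 57 fell and 2 rose in CAMA-1, and 23 fell and 12 rose in ZR-75-1. In the difference, 51 were higher and 1 lower in ZR-75-1, or 67.5% called, with differences from -0.42 to 0.71 and a median of 0.32. With mitochondrially encoded genes removed before scaling, 57 were higher and 1 lower, and with library totals 64 and 1. Within ZR-75-1, the counts leaned on single libraries: 7 up and 28 down without abemaciclib replicate 2, and 14 up and 15 down without abemaciclib replicate 1. RPLP0, of the ribosomal stalk, went from 1392, 1341 and 1326 to 979, 1013 and 972 CPM in CAMA-1 and from 3321, 2935 and 3235 to 3595, 4023 and 3722 CPM in ZR-75-1 (difference 0.71 ± 0.08, adjusted p 9.59e-10, edgeR). FAU, whose product includes the protein eS30, differed by 0.69 ± 0.09 and RPLP1 by 0.63 ± 0.09, and the 1 lower member was RPL12 at -0.42 ± 0.10. Ribosomal protein genes have many processed pseudogenes that could take part of their reads. Ribosome biogenesis genes had 7 of 46 higher and 0 lower in ZR-75-1 (median 0.20), or 15.2% called, beside 18.2% of all genes. The 7 became 11 or 12 without CAMA-1 DMSO replicate 1 or CAMA-1 abemaciclib replicate 2 or 3, and 17 with library totals. In nuclear-encoded subunits of the respiratory chain, 15 of 72 were higher and 3 lower in ZR-75-1, with a median of 0.16, and 29 and 0 with library totals. The 3 became 1 without any of CAMA-1 DMSO replicate 2, CAMA-1 abemaciclib replicates 2 and 3, ZR-75-1 DMSO replicate 2 or ZR-75-1 abemaciclib replicate 1. UQCR10, of complex III, went from 202.5, 179.8 and 185 to 154, 139.9 and 148 CPM in CAMA-1 and from 207, 190.2 and 183 to 232, 248 and 230.1 CPM in ZR-75-1 (difference 0.65 ± 0.11, adjusted p 9.89e-06, edgeR). The part of the mitochondrial share in these differences was measured only through the scaling given here.

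Oestrogen response genes rose in both lines more often than they fell: 45 of 73 rose and 8 fell in CAMA-1, and 36 rose and 8 fell in ZR-75-1. The difference was higher in ZR-75-1 for 8 and lower for 17, with a list median of -0.28, or -0.24 without 5 genes at or under 3 counts in a whole group. These counts were 12 and 13 with library totals (median -0.13), and 11 and 17 with mitochondrially encoded genes removed. ESR1, TFF1 and PGR, outside the naming rule, were singled out with their values seen. ESR1, the receptor itself, rose by 0.89 ± 0.12 in CAMA-1 and 0.97 ± 0.09 in ZR-75-1, with a difference of 0.08 (95% interval -0.22 to 0.37). TFF1, a trefoil factor, rose by 2.16 ± 0.06 and 2.32 ± 0.06, with a difference of 0.16 (95% interval -0.01 to 0.33). PGR, the progesterone receptor, rose in CAMA-1 by 1.06 ± 0.16 and had a log2 fold change of 0.04 ± 0.09 in ZR-75-1 (difference -1.02 ± 0.19, adjusted p 3.31e-05, edgeR). IGFBP5, which binds insulin-like growth factors, went from 3964, 4239 and 3491 to 4842, 5003 and 5117 CPM in CAMA-1 and from 1286, 1366 and 1380 to 3666, 3837 and 3580 CPM in ZR-75-1. It rose in both, and more in ZR-75-1 (difference 1.10 ± 0.09, adjusted p 2.21e-16, edgeR). AGR2, a disulphide isomerase, and RET, a receptor kinase, differed by 1.97 ± 0.20 and 2.66 ± 0.35. DHRS2, a short-chain dehydrogenase, went from 1.92, 0.335 and 1.84 to 45.8, 31.3 and 36.5 CPM in CAMA-1 and from 20.3, 21.8 and 22.1 to 11.6, 7.29 and 3.95 CPM in ZR-75-1 (difference -6.16 ± 0.42, adjusted p 1.13e-18, edgeR). AREG, a ligand of the EGF receptor, rose from 17.6, 17.8 and 14.7 to 51.4, 53.2 and 53.7 CPM in CAMA-1 and fell from 81.2, 73.6 and 68.1 to 58.4, 44.1 and 45.4 CPM in ZR-75-1.

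Of 29 luminal transcription factors, 16 rose and 1 fell in CAMA-1, against 9 and 4 in ZR-75-1. The 1 that fell became 2 or 3 without any of CAMA-1 DMSO replicates 1 and 3, any CAMA-1 abemaciclib library, ZR-75-1 DMSO replicate 2 or ZR-75-1 abemaciclib replicate 1, and with library totals 13 rose and 5 fell. In the difference, 2 were higher and 14 lower in ZR-75-1 (median -0.36). SOX4 went from 753, 721 and 781 to 2468, 2475 and 2592 CPM in CAMA-1 and from 497, 532 and 538 to 659, 637 and 639 CPM in ZR-75-1 (difference -1.44 ± 0.09, adjusted p 1.03e-19, edgeR). RUNX1 went from 10.9, 15.7 and 13.1 to 38.1, 30.9 and 34.05 CPM in CAMA-1, while in ZR-75-1 its libraries overlapped at 43.2, 33.8 and 43.2 and 33.8, 46.2 and 33.1 CPM. GATA3, a master regulator of luminal cells, was one of the 2 higher members, at 0.28 ± 0.08. The other was TFAP2C at 0.34 ± 0.11. Of the 9 keratins tested, 8 rose and 1 fell in CAMA-1, 2 rose and 3 fell in ZR-75-1, and 1 was higher and 6 lower in the difference. KRT18, the luminal keratin, went from 615, 602 and 648 to 958, 888 and 853 CPM in CAMA-1 and from 846, 858 and 839.5 to 653, 668 and 639 CPM in ZR-75-1. Its partner KRT8 rose in CAMA-1 by 0.83 ± 0.07 and had 0.05 (95% interval -0.10 to 0.20) in ZR-75-1. KRT80 had a difference of -3.56 ± 0.32 and the epidermal KRT10 one of 0.93 ± 0.19.

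Of 29 interferon-stimulated genes tested, out of 51 in the table, 18 rose and 1 fell in CAMA-1, and 5 rose and 5 fell in ZR-75-1. The 1 was 0 without CAMA-1 DMSO replicate 1, and the 5 that fell were 3 without ZR-75-1 DMSO replicate 1 and 2 without ZR-75-1 abemaciclib replicate 1. In the difference, 0 were higher and 8 lower in ZR-75-1, with a median of -1.0005, or -0.95 without 7 genes at or under 3 counts in a whole group. With library totals, the list summed to 824 to 910.0 CPM in CAMA-1 with DMSO and 1114 to 1162 CPM with abemaciclib. ZR-75-1 had 476 to 509 CPM and 529 to 589 CPM. IFI6, a survival factor, went from 13.4, 14.4 and 10.6 to 68.5, 73.0 and 71.8 CPM in CAMA-1 and from 11.1, 12.9 and 18.0 to 27.5, 25.7 and 24.1 CPM in ZR-75-1. It rose in both lines and more in CAMA-1 (difference -1.60 ± 0.26, adjusted p 1.98e-06, edgeR). DTX3L, a ubiquitin ligase, went from 19.2, 17.1 and 19.5 to 45.3, 45.5 and 45.9 CPM in CAMA-1 and from 16.1, 14.7 and 26.9 to 11.3, 12.5 and 14.6 CPM in ZR-75-1. The GTPase GBP2 had 4, 0 and 3 and 13, 7 and 18 counts in CAMA-1 and 33, 26 and 17 and 3, 7 and 7 in ZR-75-1 (difference -4.54 ± 0.76, adjusted p 4.76e-06, edgeR).

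The interferon-stimulated response element was searched as TTTC and TTTC with any 2 bases between them, on either strand. It stood before 13 of 23 list members with a promoter (56.5%), 3 of the 7 called lower in ZR-75-1 (42.9%) and 2.98% of tested genes, and in 3.02% of all windows. The 2 members taken by the rule given with the first sequences were IFI6 and the RNA sensor IFIH1.

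IFI6, response element, chr1:27672221-27672340, minus strand: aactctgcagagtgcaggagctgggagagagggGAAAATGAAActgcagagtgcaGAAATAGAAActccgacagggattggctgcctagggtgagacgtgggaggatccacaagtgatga
IFIH1, response element, chr2:162318685-162318804, minus strand: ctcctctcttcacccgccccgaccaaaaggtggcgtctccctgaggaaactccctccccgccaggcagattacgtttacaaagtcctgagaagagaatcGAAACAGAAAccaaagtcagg

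IFIH1 had a log2 fold change of 1.59 ± 0.30 in CAMA-1 and -1.04 ± 0.36 in ZR-75-1, a difference of -2.63 ± 0.46 (adjusted p 1.42e-05, edgeR).

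Of 33 AP-1 and immediate early genes, 21 rose and 1 fell in CAMA-1 and 9 rose and 8 fell in ZR-75-1, and the difference was higher for 1 and lower for 16 (median -0.71). The 1 was between 0 and 2 when single libraries were left out. KLF6, a zinc-finger factor, went from 79.5, 88.1 and 104 to 162, 177 and 164 CPM in CAMA-1 and from 143, 185 and 138 to 81.6, 91.7 and 98.3 CPM in ZR-75-1 (difference -1.66 ± 0.15, adjusted p 3.34e-14, edgeR). IER3 rose from 645, 678 and 706 to 1620, 1410 and 1474 CPM in CAMA-1 and overlapped in ZR-75-1 at 144, 198 and 147 and 165, 142 and 191 CPM. ZFP36L1, which destabilises AU-rich mRNAs, rose in both lines, with a difference of -0.98 ± 0.11. Of 11 NF-kB targets and cytokines tested out of 38 in the table, 7 rose in CAMA-1 and 3 in ZR-75-1 (5 of the 14 then tested without ZR-75-1 DMSO replicate 2), and 0 were higher and 3 lower in the difference. The 0 was 1 without CAMA-1 DMSO replicate 2 or ZR-75-1 abemaciclib replicate 3 and with library totals. These were RELB (-2.73 ± 0.38), NFKB2 (-1.41 ± 0.23) and the inhibitor NFKBIA (-0.79 ± 0.11). RELB, of the alternative pathway, went from 2.88, 3.68 and 5.06 to 30.4, 29.6 and 24.99 CPM in CAMA-1 and stood at 9.17, 7.98 and 7.60 and 10.3, 6.25 and 9.87 CPM in ZR-75-1. In MHC class I presentation, 8 of 17 rose in each line and 0 fell, and 5 were higher and 4 lower in the difference. The 4 became 2 without any of CAMA-1 DMSO replicate 2 or 3, CAMA-1 abemaciclib replicate 2, ZR-75-1 DMSO replicate 2 or ZR-75-1 abemaciclib replicate 1, and with library totals. Of those that fell, the 0 became 1 in ZR-75-1 without ZR-75-1 DMSO replicate 2, and 2 in CAMA-1 with library totals. HLA-B, a class I heavy chain with close relatives, went from 112, 118 and 128 to 227, 239 and 209.9 CPM in CAMA-1 and overlapped in ZR-75-1 at 31.1, 22.4 and 29.0 and 22.6, 19.1 and 22.1 CPM (difference -1.27 ± 0.18, adjusted p 1.18e-07, edgeR).

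Of 39 genes of endoplasmic reticulum chaperones and secretion, 17 rose and 2 fell in CAMA-1 and 28 rose and 1 fell in ZR-75-1. The 2 became 1 without any of CAMA-1 DMSO replicate 1, CAMA-1 abemaciclib replicate 3, ZR-75-1 DMSO replicates 1 and 3 or ZR-75-1 abemaciclib replicate 2, and 6 with library totals. The difference was higher for 15 and lower for 4 (median 0.30). With library totals, the list summed to 6704 to 6718 CPM with DMSO and 6550.3 to 6941 CPM with abemaciclib in CAMA-1, which overlap. In ZR-75-1 the sums were 6631 to 7253 CPM and 8829 to 8955 CPM, which do not. TMM scaling divides by factors of 1.08 to 1.11 for CAMA-1 DMSO and 0.965 to 1.01 for CAMA-1 abemaciclib. It lowers the DMSO sums relative to the drug sums, so the overlap in CAMA-1 is not kept on that scale. CRELD2 overlapped in CAMA-1 at 57.8, 47.9 and 47.8 and 50.3, 31.3 and 44.4 CPM and rose from 62.9, 60.7 and 49.4 to 87.6, 100 and 112 CPM in ZR-75-1 (difference 1.03 ± 0.18, adjusted p 1.33e-05, edgeR). PDIA6, a disulphide isomerase, differed by 0.68 ± 0.12 and calnexin, CANX, by 0.43 ± 0.09. The 4 lower members were 0 with library totals, 1 without CAMA-1 DMSO replicate 1 or 2, and 2 without CAMA-1 or ZR-75-1 abemaciclib replicate 1. Among cytosolic and mitochondrial heat shock chaperones, 10 of 30 were higher and 1 lower in ZR-75-1, and 18 and 1 with library totals. HSP90AA1 went from 3677, 3552 and 3953 to 3296, 3245 and 3196 CPM in CAMA-1 and from 4181, 4668 and 4091 to 5233, 5289 and 5252 CPM in ZR-75-1, a called opposite change of small size (difference 0.49 ± 0.08, adjusted p 6.34e-06, edgeR). The 1 lower member, the small heat shock protein HSPB1, went from 2724, 3009 and 2170 to 6162, 6133 and 6499 CPM in CAMA-1 and from 2402, 2556 and 2449 to 2133, 2420 and 2197 CPM in ZR-75-1 (difference -1.38 ± 0.10, adjusted p 2.22e-18, edgeR).

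Of 48 lysosome and autophagy genes, 25 rose and 2 fell in CAMA-1, and 36 rose and 0 fell in ZR-75-1 (1 fell without ZR-75-1 DMSO or abemaciclib replicate 3). In the difference, 14 were higher and 2 lower (median 0.30), and the 2 became 1 without any of CAMA-1 DMSO replicates 1 and 2, CAMA-1 abemaciclib replicates 1 and 2, all 3 ZR-75-1 DMSO libraries or ZR-75-1 abemaciclib replicates 1 and 2. NPC2, which carries cholesterol out of lysosomes, overlapped in CAMA-1 at 71.5, 80.0 and 58.1 and 68.8, 85.0 and 74.7 CPM and rose from 72.0, 72.1 and 90.9 to 206, 218 and 187 CPM in ZR-75-1 (difference 1.26 ± 0.15, adjusted p 1.58e-09, edgeR). ATP6AP1, of the proton pump, rose in both lines with a difference of 0.88 ± 0.10, and the thioesterase PPT1 moved in opposite directions with one of 0.79 ± 0.11. In lipid metabolism, the desaturase SCD was at 226, 232 and 263 and 233, 223 and 230.2 CPM in CAMA-1 and rose from 1756, 1725 and 1628 to 2732, 2730 and 2868 CPM in ZR-75-1 (difference 0.78 ± 0.10, adjusted p 1.42e-08, edgeR). SREBF1, the master regulator of fatty acid synthesis, rose in both with a difference of 0.79 ± 0.16. Over all 23 tested genes of fatty acid synthesis, 3 were higher and 1 lower, or 17.4% called, near the 18.2% of all genes. The 3 became 5 without ZR-75-1 DMSO replicate 2. The 1 lower became 0 without any of CAMA-1 DMSO replicates 1 and 3, CAMA-1 abemaciclib replicate 3, ZR-75-1 DMSO replicate 1 or ZR-75-1 abemaciclib replicate 1 and with library totals, and 2 without ZR-75-1 DMSO replicate 3. Of 25 tested genes of cholesterol synthesis, 1 was higher and 5 lower. The 5 became 3 without CAMA-1 DMSO replicate 2 or CAMA-1 abemaciclib replicate 3, and the 1 became 2 or 3 without any of CAMA-1 DMSO replicates 2 and 3, CAMA-1 abemaciclib replicates 1 and 3 or ZR-75-1 DMSO replicate 2, and 6 with library totals. Of 32 glycolysis and hypoxia genes, 6 were higher and 6 lower. GAPDH, often taken as a reference gene, went from 1150, 1219 and 1278 to 807, 781 and 758 CPM in CAMA-1 and from 5671, 5862 and 5568 to 6501, 7192 and 6240 CPM in ZR-75-1, a called opposite change (difference 0.86 ± 0.10, adjusted p 1.51e-10, edgeR). Among NRF2 and iron genes, 6 of 26 were higher and 2 lower, and the 2 became 1 without any of CAMA-1 DMSO replicate 2, CAMA-1 abemaciclib replicates 2 and 3, ZR-75-1 DMSO replicate 2 or ZR-75-1 abemaciclib replicate 1, with NQO1, a quinone reductase, at 0.93 ± 0.12 and the antioxidant PRDX1 at 0.54 ± 0.10.

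Genes of the tubulin and actin cytoskeleton were lower in ZR-75-1 for 23 of 32 tested and higher for 1, which is 75.0% called against 18.2% (median -0.54). In CAMA-1, 18 rose and 6 fell, and in ZR-75-1, 7 rose and 19 fell. ACTB, β-actin and another common reference gene, went from 1273, 1285 and 1301 to 1573, 1730 and 1624 CPM in CAMA-1 and from 1223, 1258 and 1229 to 788, 853 and 796 CPM in ZR-75-1 (difference -0.96 ± 0.09, adjusted p 9.98e-14, edgeR). TPM4, a tropomyosin, had log2 fold changes of 0.46 ± 0.07 and -0.89 ± 0.08. The 1 higher member was LMNB1, the lamin B1 gene, at 0.67 ± 0.20, a call that was lost without ZR-75-1 abemaciclib replicate 3 (adjusted p 0.166, edgeR), and the count was 2 without CAMA-1 DMSO replicate 1 or 3, CAMA-1 abemaciclib replicate 2, ZR-75-1 DMSO replicate 2 or 3 or ZR-75-1 abemaciclib replicate 1. Tubulin and actin genes have close paralogues and pseudogenes, so reads may be shared among them. In epithelial junctions, 1 of 30 was higher and 7 lower, but 3 and 3 with library totals and 2 and 4 without CAMA-1 DMSO replicate 3, and the 7 became 3 or 4 without any of CAMA-1 DMSO replicates 2 and 3, ZR-75-1 DMSO replicate 2 or ZR-75-1 abemaciclib replicate 1. The desmosome genes DSP and DSC2 rose in CAMA-1 and fell in ZR-75-1, with differences of -1.02 ± 0.10 and -2.29 ± 0.28 (adjusted p 8.78e-12 and 2.26e-09, edgeR).

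Growth factor receptors and adaptors were lower in ZR-75-1 for 14 of 31 and higher for 3, and the 14 became 9 without CAMA-1 DMSO replicate 1 or 2 or ZR-75-1 abemaciclib replicate 1. EPHB4, an ephrin receptor, differed by -1.17 ± 0.13 and PIK3R3, a regulatory subunit of PI3-kinase, by -1.13 ± 0.14. Of 23 secreted factors, 8 were higher and 7 lower. The list median was -0.04, or -0.34 without the 10 genes that were at or under 3 counts in a whole group. MGP, matrix Gla protein, went from 693, 721 and 726 to 505, 475 and 433 CPM in CAMA-1 and from 788, 788 and 784 to 3596, 3686 and 3836 CPM in ZR-75-1. The DMSO libraries of the lines lay close together and the drug libraries did not overlap, with log2 fold changes of -0.60 ± 0.06 and 2.24 ± 0.06 (difference 2.83 ± 0.09, adjusted p 1.25e-35, edgeR). THBS1, thrombospondin, rose in CAMA-1 by 2.09 ± 0.19 and stood at 8, 7 and 4 and 5, 2 and 3 counts in ZR-75-1. BMP7 went from 4, 0 and 8 to 58, 33 and 39 counts in CAMA-1 and held 4, 6 and 2 and 0, 0 and 2 counts in ZR-75-1.

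In the BCL2 family, 1 of 16 was higher and 3 lower in ZR-75-1, and 2 were higher without CAMA-1 DMSO replicate 3 or ZR-75-1 abemaciclib replicate 1, and 3 with library totals. BCL2, the survival gene, fell in CAMA-1 from 6.71, 5.69 and 2.99 to 2.12, 3.43 and 1.25 CPM, with overlapping libraries, and rose in ZR-75-1 from 85.1, 89.6 and 96.4 to 167, 163 and 163 CPM (difference 2.04 ± 0.37, adjusted p 2.03e-05, edgeR). MCL1 rose in CAMA-1 from 175, 180.2 and 157 to 353, 355 and 333 CPM and had a log2 fold change of -0.12 (95% interval -0.29 to 0.04) in ZR-75-1 (difference -1.15 ± 0.11, adjusted p 1.21e-12, edgeR). BBC3 is given above, and BAX, with 2 to 37 counts in the 12 libraries, lost its call in 9 of 21 alternatives. Proteasome subunits had 2 of 32 higher and 1 lower, or 9.38% called, beside 18.2% of all genes, and 18 fell in CAMA-1 and 17 in ZR-75-1. The 2 became 4 or 5 without any CAMA-1 DMSO library, ZR-75-1 DMSO replicate 2 or ZR-75-1 abemaciclib replicate 1, and 8 with library totals. The 1 lower became 0 without any of these libraries, CAMA-1 abemaciclib replicate 2 or 3 or ZR-75-1 abemaciclib replicate 3, and with library totals. Of 11 retinoid genes, 1 was higher and 2 lower (1 lower without any of CAMA-1 DMSO replicate 3, CAMA-1 abemaciclib replicates 2 and 3, ZR-75-1 DMSO replicate 3 or ZR-75-1 abemaciclib replicate 1), and of 17 genes of steroid and xenobiotic metabolism 3 were higher and 2 lower, among them FKBP5, a glucocorticoid and androgen target, at 1.05 ± 0.20, and CYP1B1 at 0.86 ± 0.23.

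Palbociclib, the other CDK4/6 inhibitor of the series, was compared with the same DMSO libraries, so its fold changes are not independent of those of abemaciclib and are given only side by side. GDF15 had 4.65 ± 0.16 in CAMA-1 and -1.61 ± 0.12 in ZR-75-1 with palbociclib, beside 3.04 and -3.15 with abemaciclib. CDKN1A had 1.66 ± 0.18 and -1.04 ± 0.11, beside 2.02 and -2.47. STC1 had -3.16 ± 0.19 and 0.45 ± 0.15, beside -1.58 and 0.82. All 3 had the same signs under both drugs. For MKI67, the values were -2.37 ± 0.09 and -1.35 ± 0.09 with palbociclib and -3.24 and -5.87 with abemaciclib, and ZR-75-1 had the larger fall with abemaciclib and the smaller with palbociclib. MCM2 had -1.44 ± 0.11 and 0.03 ± 0.11 beside -2.24 and -0.52, and SLC7A11 had -1.73 ± 0.45 and -3.24 ± 0.29 beside -0.20 and -4.41. TUBA1A had 3.75 ± 0.20 and -0.05 ± 0.09, and MGP -0.23 ± 0.06 and 3.47 ± 0.07.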

How the data were processed

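The deposited table held raw counts, whole-number reads per gene for 18 libraries of QuantSeq 3′ mRNA sequencing, a method that reads 1 fragment near the end of each transcript, so that counts need no correction for gene length when libraries are compared. Before deposit the authors trimmed reads with BBDuk, aligned them with STAR 2.7.5b to hg38 and counted them with featureCounts 2.0.1 on GENCODE annotation. The labels call the kit RW and the methods FWD, which may differ in read orientation, and the strand setting and the treatment of multi-mapped reads are not given in the sources used here, so overlapping genes and near-identical copies are uncertain. Of 60656 gene rows, 35543 held 0 in every library. Symbols came from a table of Ensembl IDs, in which 60401 IDs were found and 40825 had a symbol.

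Library totals ran from 2308442 to 4146549 counts. They were scaled by TMM, and genes were kept by edgeR's filterByExpr on the 6 groups, which left 11987 genes with 99.645% of the counts. All 18 libraries entered 1 model with a mean per group (R 4.3.3, edgeR 4.0.16, quasi-likelihood test), and the response difference was the contrast of abemaciclib minus DMSO in ZR-75-1 minus the same in CAMA-1. P-values were adjusted by Benjamini-Hochberg over all genes tested and called below 0.05. The script was tested on simulated data before use. Groups came from the sample labels, and the 3 libraries of a group were independent biological replicates per the study's methods. No 2 replicates agreed within counting noise, and each was counted once. Standard errors, error bars and 95% intervals of fold changes were worked back from each fold change and the statistic of its test, so they are approximate. Floors cover counting error only.

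A gene counted as changed in opposite directions when the difference and both within-line responses were called with opposite signs. It counted as changed in 1 line only when the other line was not called and its 95% interval lay within 1.5-fold. Genes named were the 5 opposite genes per direction with the largest smaller response, the 3 per line and direction changed in 1 line only with the largest difference, and 2 per direction and line among genes that moved the same way. Each of these had to carry a symbol, average 10 counts or more over the 12 libraries, be called in the difference, and have no overlap between abemaciclib and DMSO replicates in a line where it changed. Up to 3 called members per direction of each list, by smallest p, and the whole CDK4/6 and E2F list were added. Genes on the Y chromosome and XIST were left out, and some genes that met the rule are not reported here. The members, the 38 lists and the rules were chosen with earlier results of these data known. Promoter sequences came from RefSeq. Alternatives were other scalings, filters and sets of libraries, DESeq2 1.42.0, a replicate block and each replicate left out. The 6 palbociclib libraries entered the fit for the spread.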

Additional observations from a re-analysis of the deposited data

Results flagged for a closer look

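The responses of the cell lines to abemaciclib differed by the test of the difference itself for 2185 genes, 251 of them with called responses of opposite sign (edgeR quasi-likelihood test, Benjamini-Hochberg adjusted p). Among the genes named for opposite responses, the log2 response difference (ZR-75-1 less CAMA-1) was -6.19 for GDF15, -6.59 for KRT81, -4.57 for ACTA2, -4.49 for CDKN1A and -4.20 for MAP2, which rose in CAMA-1 and fell in ZR-75-1. It was 3.60 for SUSD4, 3.07 for DOK7, 2.65 for SLC6A6, 2.40 for STC1 and 1.62 for NAB2, which rose in ZR-75-1 and fell in CAMA-1. Groups of 3 libraries were too small for a test of single samples that stand apart.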

How the results depend on the processing

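Of the 185 genes picked by the naming rule, some of which the text does not name, 165 were called in the response difference, 135 of these kept their call under all 21 alternatives, and 0 reversed under any. Some genes described above as losing a call without single libraries also lost it under other settings. With no filter these were LIN52, RNF128, BTG3, E2F2 and WARS1. RNF128, BTG3 and SETBP1 lost theirs with DESeq2, LIN52 and RNF128 with the replicate block, and E2F2 with library totals. The number of called differences was 2183 with RLE scaling, 2176 with upper-quartile scaling, 2197 with the mitochondrially encoded genes removed, 2195 with a mean of at least 10 counts, 1866 with no filter (25113 genes), 2241 with the 12 DMSO and abemaciclib libraries alone and 2153 with DESeq2, which shared 2036 with the edgeR calls. Leaving out each replicate gave 1887 to 2118. Scaling by library totals only moved the median difference over all genes from −0.03 to 0.12 on the log2 scale, so that 1620 genes were called higher in ZR-75-1 and 837 lower, and 163 of the genes with opposite responses were higher in ZR-75-1. The medians of lists near 0 therefore have no firm sign, with 66 sign changes among 713 list values. A difference of at least 2-fold was called for 820 genes. With no bound on the other line, 1481 genes were called in 1 line only, and with the 95% interval within 2-fold it was 1272. The labels give every group the replicate numbers 1 to 3. Deviations from the group means of same-numbered DMSO and abemaciclib libraries correlated between −0.0174 and 0.0152, and not every library correlated best with its own number. The numbers were therefore not taken to pair the samples. The replicate block gave 2094 calls with 239 in opposite directions. Depth limits genes of few counts, for which a missing call does not show that the responses were alike.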
